A study of Rattus norvegicus with 12 samples.

Results

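The 9 genes described here are *P2ry12*, *Tmem119*, *Cx3cr1*, *Csf1r*, *Aif1*, *Trem2*, *Tyrobp*, *Itgam* and *Cd68*, which are used to recognize microglia in brain tissue. They were chosen by name among the 37209 genes counted in the central amygdala (CeA). The rule uses names and no measured value, but the list was drawn up with earlier results of these data known. The study compared rats exposed to chronic intermittent ethanol (CIE) with air-exposed rats by poly-A RNA-Seq. The CIE group held 6 rats that breathed ethanol vapor in daily cycles over several weeks and were killed immediately after the last alcohol exposure, and the Control group held 6 rats kept in air and killed after the last air exposure. All 12 rats were wild-type male Sprague Dawley rats aged 14 to 16 weeks, and each gave 1 library from tissue punches of the CeA of 1 hemisphere. Rats keep their label numbers here, CIE rats 1 to 6 and Control rats 7 to 12, and CIE cannot be told apart from anything that followed this numbering. Total counts lay between 61978486 and 78441691 in CIE rats and between 39082548 and 95647601 in Control rats.

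Microglia are the resident macrophages of the brain. In the undisturbed adult brain they survey the tissue with fine processes, depend on signalling through the CSF1 receptor for their survival, and are held in this state by signals from neurons and other cells, among them the chemokine fractalkine and extracellular nucleotides. When microglia react to injury or to lipid debris, the receptors of the surveying state, such as *P2ry12*, *Tmem119* and *Cx3cr1*, typically decline while *Trem2*, *Tyrobp*, *Cd68* and *Aif1* typically increase, so that the 9 genes cover both sides of that shift. All 9 also occur to different degrees in macrophages at the borders of the brain and in blood.

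All 9 genes were detected in every rat and all passed edgeR's filter on low counts, which left 20944 genes for the test. Levels are given in CPM, the counts scaled to library size with TMM normalization, and differences as log2 fold changes of CIE over Control, so that a negative value stands for a lower level in the CIE group. A gene was called at a nominal p value below 0.05, the threshold the study used beside a 5% false discovery rate (FDR), and the FDR was computed over all genes tested. In bulk tissue, fewer microglia and less RNA per microglial cell cannot be told apart.

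Of the 9 microglial identity genes, 1 passed the nominal threshold, beside 8.31% of all genes tested in either direction. *Cx3cr1*, the fractalkine receptor, decreased by 17.8% in the CIE rats and passed the nominal threshold but not 5% FDR (FDR = 0.169, rank 207 of 20944 by p), and the remaining 8 genes did not pass the nominal threshold in either direction. Called this way, 1 of 9 members was lower and 0 were higher, against 4.31% lower and 4.0% higher among all genes tested. At 5% FDR, edgeR called 0 of the 9 members and 0.363% of all genes, and DESeq2 likewise called 0 of the 9. The median log2 fold change of the 9 members was -0.03, and that of all genes tested was 0.00. The summed level of the 9 genes lay between 229.5 and 307.0 CPM in the CIE rats (median 251.5) and between 257.6 and 302.1 CPM in the Control rats (median 273.6), with the highest sum in CIE rat 6.

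**Figure D1:**
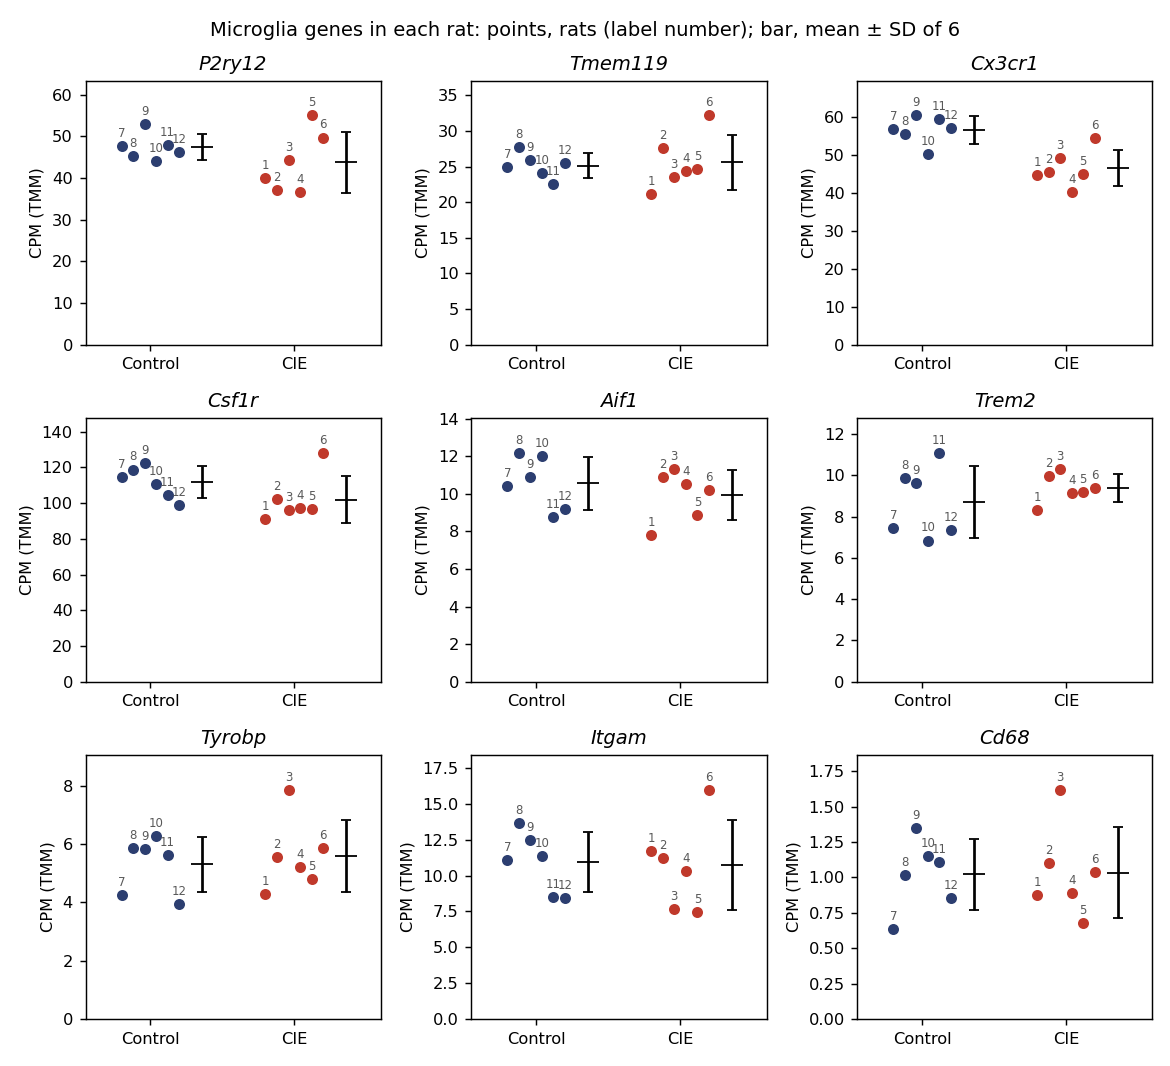
Level of each of the 9 genes in each rat, in CPM with TMM normalization on a linear axis from 0, with blue points for Control rats 7 to 12 and red points for CIE rats 1 to 6. The bar beside each group is the mean ± SD of 6 rats, and *Cx3cr1* is the panel in which 5 of the 6 CIE rats lie below every Control rat.

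*Cx3cr1* encodes the receptor through which microglia bind fractalkine, a chemokine that neurons carry on their membrane. Its level in the CIE rats ranged from 40.2 to 54.3 CPM with a median of 45.2, and in the Control rats from 50.1 to 60.3 CPM with a median of 56.9. The groups overlapped through 1 rat on each side, as CIE rat 6 at 54.3 CPM lay above Control rat 10 at 50.1 CPM, and the other 5 CIE rats lay below every Control rat. Among all genes tested, 2.36% had at least 5 of the 6 CIE rats below every Control rat. The mean was 46.4 ± 4.8 CPM in CIE rats, against 56.5 ± 3.59 CPM in Control rats (SD, n = 6 each), and the log2 fold change was -0.28 (SE 0.07, 95% confidence interval -0.44 to -0.13). A two-sided exact permutation test over the rats gave p = 0.00433, where 0.00216 is the smallest p that 6 rats against 6 allow. The level rested on 2294 to 5334 counts per rat.

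The sequence around the transcription start of *Cx3cr1* is shown because this is the member that passed the nominal threshold. That of *Trem2*, the member with the highest log2 fold change, is shown for comparison. Both are from RefSeq on the rat build GRCr8, matched by symbol, and run from 250 bases before to 50 bases after the annotated start. The window of *Cx3cr1* is chr8:128677017-128677316 on the minus strand, and that of *Trem2* is chr9:20151730-20152029 on the minus strand. Capitals mark the core letters of the site bound by PU.1, the transcription factor that specifies macrophages and microglia, searched as AGGAAGT on both strands (ACTTCCT on the other strand). It has no overlap with the other motif searched, TATAAA, which was also read on both strands.
Cx3cr1: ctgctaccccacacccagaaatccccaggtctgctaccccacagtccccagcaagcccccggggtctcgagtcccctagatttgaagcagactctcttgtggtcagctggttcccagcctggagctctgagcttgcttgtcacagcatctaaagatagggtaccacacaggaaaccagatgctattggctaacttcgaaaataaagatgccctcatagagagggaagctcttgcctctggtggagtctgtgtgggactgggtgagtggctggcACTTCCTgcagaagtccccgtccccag
Trem2: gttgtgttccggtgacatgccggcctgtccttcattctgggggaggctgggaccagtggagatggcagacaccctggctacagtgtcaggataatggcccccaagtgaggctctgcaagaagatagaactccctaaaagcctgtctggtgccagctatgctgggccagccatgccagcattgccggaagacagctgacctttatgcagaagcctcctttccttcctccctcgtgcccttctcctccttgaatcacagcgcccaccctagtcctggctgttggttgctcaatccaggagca
The reference table held promoter windows for 5 of the 9 members, *Cx3cr1*, *Trem2*, *Itgam*, *Csf1r* and *Cd68*. The PU.1 letters occurred in the window of *Cx3cr1* only, where the match begins at base 24 counted from the start base as 1, and 8.41% of 33469 rat promoter windows of the same length hold them. TATAAA occurred in 0 of the 5 windows and in 14.2% of all windows. *Spi1*, the gene that encodes PU.1, was at 4.87 ± 0.799 CPM in CIE and 5.79 ± 0.759 CPM in Control rats, with a log2 fold change of -0.25 (95% interval -0.52 to 0.02, FDR = 0.647, exact permutation p = 0.0736).

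The ligand of *Cx3cr1* and the proteases that release it from the membrane were measured in the same libraries. Fractalkine (*Cx3cl1*) ranged from 259.9 to 463.8 CPM in the CIE rats (median 333.8) and from 285.1 to 568.2 CPM in the Control rats (median 352.0). The groups overlapped over most of this range, and the log2 fold change was -0.13 (SE 0.17, FDR = 0.892, exact permutation p = 0.558). Under 12 alternative settings of the test, taken up below, it lay between -0.26 and 0.17. The smallest nominal p value, 0.00367, came from a setting with a lower level in CIE, and the setting at 0.17 had a nominal p value of 0.177. *Adam17*, which encodes one of the sheddases of fractalkine, ranged from 20.7 to 29.8 CPM in the CIE rats (median 23.1) and from 28.4 to 33.0 CPM in the Control rats (median 31.0). Here too 5 of 6 CIE rats lay below every Control rat and CIE rat 6 was the exception, and the log2 fold change was -0.37 (SE 0.09, FDR = 0.124, exact permutation p = 0.00649). The FDR of *Adam17* was 0.0219 with DESeq2 and 0.0245 with limma-voom with sample quality weights. *Adam10*, the sheddase that acts on resting cells, gave a log2 fold change of -0.07 (SE 0.06, FDR = 0.788). *Adam17* is not confined to microglia, and which cells its counts came from was not tested. With the mean log2 CPM of 10 myelin genes (the myelin score) as a covariate, *Adam17* was at -0.16 (FDR = 0.488) and missed the nominal threshold.

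*P2ry12* encodes the ADP receptor that guides microglial processes toward injured or active cells. It ranged from 36.6 to 55.0 CPM in the CIE rats (median 42.0) and from 44.1 to 53.0 CPM in the Control rats (median 47.0). CIE rats 1, 2 and 4 lay below every Control rat, while CIE rat 5 had the highest level of all 12, so the CIE values spanned the whole Control range. The means were 43.8 ± 7.35 and 47.4 ± 3.13 CPM, and the log2 fold change was -0.11 (95% interval -0.32 to 0.09, FDR = 0.818, exact permutation p = 0.294). Without CIE rat 5 it was -0.19 and passed the nominal threshold (FDR = 0.562). With scores of cortical and striatal markers in the model it was -0.02 (FDR = 0.959), and with the myelin score -0.04 (FDR = 0.943). In the RefSeq annotation of GRCr8, *P2ry12* lies within the span of *Med12l* and *Cx3cr1* overlaps an uncharacterized locus. Whether the authors' counting used strand is not given in the sources used here, so reads of overlapping genes could be shared. *Med12l* itself was at 22.0 ± 1.77 CPM in CIE and 21.5 ± 2.33 CPM in Control rats (log2 fold change 0.03, FDR = 0.946).

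*P2ry13*, which encodes another ADP receptor of microglia, belongs to a list of 30 further microglial genes and passed the nominal threshold. It ranged from 6.35 to 10.1 CPM in the CIE rats (median 8.25) and from 8.94 to 11.2 CPM in the Control rats (median 10.7). Again CIE rats 1, 2 and 4 were the ones below every Control rat. The same rats had the highest summed levels of cortical marker genes, at 426.1, 217.5 and 272.4 CPM, against 12.8 to 64.0 CPM in the other CIE rats. Control rat 10 had a cortical sum of 159.9 CPM, with *P2ry13* at 10.7 CPM. Whether cortical tissue accounts for these values was not tested. The log2 fold change of *P2ry13* was -0.33 (SE 0.13, FDR = 0.501, exact permutation p = 0.0281). The nominal p value was above 0.05 when CIE rat 1, 2 or 4 was left out, with a highest value of 0.054. The threshold was also missed with scores of cortical and striatal markers in the model, where *P2ry13* was at -0.24 (FDR = 0.579). It was missed too with the myelin score (-0.33, FDR = 0.52) and the endothelial score (-0.33, FDR = 0.58). Each score is the mean log2 CPM of the tested genes of its list. The score of the other microglial genes (-0.29, FDR = 0.844) contains *P2ry13* itself, so that fit is no separate check of this gene. The third nucleotide receptor, the UDP receptor *P2ry6*, was at a log2 fold change of -0.29 with a wider error (SE 0.18, FDR = 0.716).

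*Csf1r* encodes the receptor tyrosine kinase on which microglial survival depends. It ranged from 91.0 to 128.3 CPM in the CIE rats (median 97.1) and from 99.0 to 122.7 CPM in the Control rats (median 112.7). CIE rat 6 had the highest value of all 12 rats and the other 5 CIE rats lay between 91.0 and 102.5 CPM, 4 of them below every Control rat. The means were 102.0 ± 13.4 and 111.7 ± 8.9 CPM, with a log2 fold change of -0.13 (95% interval -0.31 to 0.05, FDR = 0.748, exact permutation p = 0.167). Without CIE rat 6 it was -0.21 (FDR = 0.246) and passed the nominal threshold. With limma-voom on all 12 libraries it was -0.18 (FDR = 0.234) and passed it too. With the myelin and endothelial scores as covariates *Csf1r* was at 0.04 and 0.05.

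Both ligands of the CSF1 receptor are made mainly outside microglia. *Il34*, which encodes the neuronal ligand, ranged from 43.1 to 54.5 CPM in the CIE rats (median 49.6) and from 48.8 to 54.0 CPM in the Control rats (median 52.2). *Csf1*, which encodes the other ligand, ranged from 17.7 to 25.8 CPM and from 17.5 to 22.6 CPM, with medians of 21.8 and 20.2. The groups overlapped for both, with log2 fold changes of -0.07 (SE 0.06, FDR = 0.83, exact permutation p = 0.225) for *Il34* and 0.11 (SE 0.10, FDR = 0.826, exact permutation p = 0.292) for *Csf1*. CIE rat 6, the highest in *Csf1r*, was the lowest of all 12 rats in *Il34* and the highest in *Csf1*.

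*Trem2* encodes a lipid-sensing receptor of microglia that signals through the adaptor encoded by *Tyrobp*. The level of *Trem2* ranged from 8.32 to 10.3 CPM in the CIE rats (median 9.29) and from 6.84 to 11.1 CPM in the Control rats (median 8.52). The CIE rats lay within the span of the Control rats, 3 of which were below every CIE rat and 1 above, and the log2 fold change was 0.11 (95% interval -0.15 to 0.37, FDR = 0.865, exact permutation p = 0.387). *Tyrobp* ranged from 4.28 to 7.87 CPM in the CIE rats (median 5.39) and from 3.95 to 6.28 CPM in the Control rats (median 5.72). Its highest value was in CIE rat 3, and the log2 fold change of 0.08 (95% interval -0.26 to 0.42, FDR = 0.934, exact permutation p = 0.675) became -0.04 without that rat.

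*Apoe*, the lipid carrier that binds TREM2, ranged from 2343.3 to 3225.4 CPM in the CIE rats (median 2564.8) and from 2144.7 to 2586.8 CPM in the Control rats (median 2402.6), with a log2 fold change of 0.12 (SE 0.08, FDR = 0.766, exact permutation p = 0.21). CIE rat 3 was the highest in *Apoe* as it was in *Tyrobp*. *Syk*, the kinase that the TYROBP adaptor recruits, ranged from 4.99 to 7.86 CPM in the CIE rats (median 6.14) and from 7.07 to 8.97 CPM in the Control rats (median 7.87). For *Syk*, 5 of 6 CIE rats lay below every Control rat, with CIE rat 6 the exception, and the log2 fold change was -0.33 (SE 0.11, FDR = 0.386, exact permutation p = 0.013). It was -0.15 with the myelin score as a covariate (FDR = 0.705) and -0.20 with the endothelial score (FDR = 0.686), and with either it missed the nominal threshold. Further down the same path, *Plcg2* was at 0.07 (SE 0.18) and *Vav1* at -0.29 (SE 0.15), neither past the nominal threshold.

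*Itgam* encodes the alpha chain of complement receptor 3 (CD11b), which microglia share with other myeloid cells. It ranged from 7.46 to 16.0 CPM in the CIE rats (median 10.7) and from 8.47 to 13.7 CPM in the Control rats (median 11.3). The lowest and the highest value of all 12 rats were both in the CIE group, in rats 5 and 6, and the log2 fold change was -0.03 (95% interval -0.43 to 0.36, FDR = 0.976, exact permutation p = 0.879). *Itgb2*, its beta chain, gave -0.06 (SE 0.16, FDR = 0.949, exact permutation p = 0.727), and the complement component *C3*, whose fragment is the ligand, gave 0.56 (SE 0.38, FDR = 0.755). The direction of *Itgam* depended on the setting, since with the myelin score as a covariate its log2 fold change was 0.40 (FDR = 0.429).

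The other 3 members are *Tmem119*, a membrane protein of resident microglia, *Aif1*, which encodes the calcium-binding protein IBA1 used to stain microglia, and *Cd68*, a lysosomal glycoprotein of phagocytes. *Tmem119* ranged from 21.2 to 32.2 CPM in the CIE rats (median 24.5) and from 22.5 to 27.7 CPM in the Control rats (median 25.2), and the log2 fold change was 0.03 (95% interval -0.17 to 0.23, FDR = 0.961, exact permutation p = 0.803). The Control values lay inside the CIE range, which CIE rats 1 and 6 bounded. *Aif1* ranged from 7.8 to 11.3 CPM in the CIE rats (median 10.4) and from 8.79 to 12.2 CPM in the Control rats (median 10.7), and the log2 fold change was -0.09 (95% interval -0.33 to 0.15, FDR = 0.883, exact permutation p = 0.442). The groups overlapped for all but CIE rat 1 at the lower end and 2 Control rats at the upper end. *Cd68* ranged from 0.677 to 1.62 CPM in the CIE rats (median 0.964) and from 0.638 to 1.35 CPM in the Control rats (median 1.07), and the log2 fold change was 0.02 (95% interval -0.49 to 0.54, FDR = 0.988, exact permutation p = 0.918). It rested on 43 to 105 counts per rat and had the widest interval of the 9.

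The intervals bound how large a difference could have gone unseen. Of the 9 members, 8 had a 95% interval that included 0, and for all 9 the interval lay within a 1.5-fold change in either direction. The interval lay within a 1.25-fold change for 2 members, *Tmem119* and *Csf1r*. For *Cx3cr1* the interval of the change reached from -26.3% to -8.4%. In 0 of the 9 members were the groups fully separated, and 0.893% of all genes tested had groups that did not overlap.

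That list of 30 other genes used as microglial markers was read from the same fit. Of these, 29 were listed in the counts and 28 were tested, as *Gpr34* was listed at 0 in every rat. The log2 fold change was negative for 22 genes and positive for 6, with a median of -0.16 against 0.00 over all genes tested. Of the 20944 genes tested, 10408 had a negative value. The nominal threshold was passed by 1 gene in each direction, *P2ry13* lower and *Mertk* higher, which is 2 of 28 beside 8.31% of all genes. *Mertk*, a receptor tyrosine kinase for the uptake of apoptotic cells that astrocytes share with microglia, ranged from 21.6 to 34.0 CPM in the CIE rats (median 32.8) and from 19.6 to 25.2 CPM in the Control rats (median 24.1). Of the CIE rats, 5 lay above every Control rat and CIE rat 3 did not, and the log2 fold change was 0.38 (SE 0.11, FDR = 0.211, exact permutation p = 0.013). With single rats left out the log2 fold change of *Mertk* lay between 0.34 and 0.46, with FDR values of 0.0191 to 0.435. Under the 12 other settings it lay between 0.27 and 0.54, with nominal p values of at most 0.012. *Mertk* passed 5% FDR with DESeq2 and with limma-voom, but not with the myelin, endothelial or microglial score as a covariate.

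The remaining genes of that list stayed above the nominal threshold. *Cyth4*, a signalling gene of myeloid cells, had the third smallest p value, with 5 CIE rats between 11.2 and 13.9 CPM, below every Control rat (14.5 to 16.2 CPM), and CIE rat 6 above all of them at 18.0 CPM (log2 fold change -0.21, FDR = 0.631, exact permutation p = 0.0693). The complement genes *C1qa*, *C1qb* and *C1qc* lay between -0.14 and -0.05, and *Sall1*, a transcription factor of microglial identity, was at -0.19 (SE 0.10, FDR = 0.672). The summed level of the list was 559.0 to 714.4 CPM in the CIE rats (median 585.5) and 579.4 to 682.5 CPM in the Control rats (median 638.2), again with CIE rat 6 the highest of all.

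**Figure D2:**
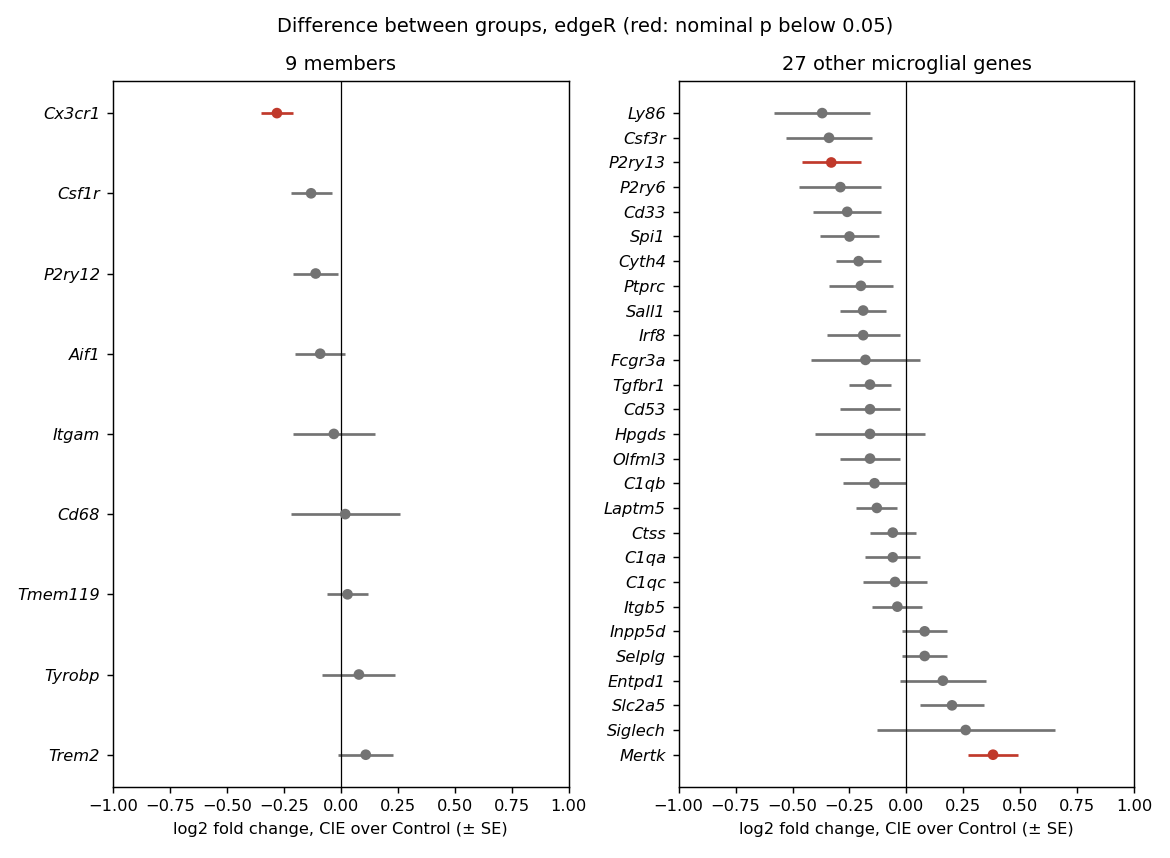
Log2 fold change of CIE over Control with its SE as a horizontal bar, for the 9 members on the left and 27 of the 28 other microglial genes tested on the right, with red marking a nominal p value below 0.05. *Cx3cr1* is the red member, and *P2ry13* and *Mertk* are red on the right, on opposite sides of 0.

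*Cx3cr1* was also set against the other members in each rat, after its difference had been seen. Its ratio to the geometric mean of the other 8 genes was 3.72 ± 0.26 in the CIE rats (3.39 to 4.04) and 4.48 ± 0.534 in the Control rats (3.87 to 5.16), with 4 CIE rats below every Control rat. The ratio to *P2ry12* was below every Control value in 5 CIE rats and the ratio to *Csf1r* in 3. With the mean log2 CPM of the 28 other microglial genes tested as a covariate, the log2 fold change of *Cx3cr1* was -0.22 (FDR = 0.632).

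Genes that typically rise in reactive or lysosome-rich microglia formed a list of 27, of which 20 were tested. At a nominal p value below 0.05, 3 were lower and 2 higher, against 4.31% lower and 4.0% higher among all genes tested. The median log2 fold change was -0.04. *Tlr2*, a receptor for bacterial lipoproteins, ranged from 2.56 to 4.36 CPM in the CIE rats (median 3.74) and from 4.64 to 6.81 CPM in the Control rats (median 5.6). The groups did not overlap, and the log2 fold change was -0.65 (SE 0.14, FDR = 0.0863, exact permutation p = 0.00216). The FDR of *Tlr2* was 0.00341 with DESeq2 and 0.0458 with limma-voom. *Cybb*, the catalytic subunit of the phagocyte NADPH oxidase, was lower at -0.88 (SE 0.27, FDR = 0.301, exact permutation p = 0.00866) on 25 to 98 counts per rat, and *Cd9*, a tetraspanin that oligodendrocytes also express, was lower at -0.55 (SE 0.16, FDR = 0.221, exact permutation p = 0.0152). With DESeq2 the FDR was 0.121 for *Cybb* and 0.0494 for *Cd9*. Both missed the nominal threshold with the myelin score as a covariate, where *Cd9* was at -0.12 (FDR = 0.728) and *Cybb* at -0.53 (FDR = 0.60), and with the endothelial score, where they were at -0.19 (FDR = 0.733) and -0.31 (FDR = 0.783). *Cybb* also missed it with the score of the other microglial genes (-0.59, FDR = 0.794), where *Cd9* was at -0.32 and passed it, and *Tlr2* passed it with each of the 3 scores. *Nfkbia*, the NF-kappaB inhibitor, was higher at 0.44 (SE 0.18, FDR = 0.542) and *Lpl*, lipoprotein lipase, at 0.36 (SE 0.16, FDR = 0.59). The cytokine genes *Il1b*, *Ccl2*, *Ccl3* and *Ccl4* and the reactive markers *Itgax* and *Clec7a* were under the filter on low counts and were not tested.

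Other macrophages and blood leukocytes share several of the 9 genes, and their markers were read in the same libraries. The 10 markers of border macrophages, of which 8 were tested, summed to 14.0 to 25.6 CPM in the CIE rats and 16.8 to 21.1 CPM in the Control rats. The scavenger receptor *Stab1* averaged 7.64 and 7.74 CPM in CIE and Control rats, and the mannose receptor *Mrc1* 4.54 and 4.35 CPM. Of the 8 tested, 1 was higher at the nominal threshold, beside 4.0% of all genes tested. It was the hemoglobin scavenger receptor *Cd163*, at 1.97 ± 0.808 CPM in CIE and 1.14 ± 0.467 CPM in Control rats (log2 fold change 0.77, SE 0.33, FDR = 0.558), although the exact permutation test gave p = 0.0693. Of 15 leukocyte markers, 4 passed the filter, and the list summed to 3.32 to 5.83 CPM in the CIE rats and 4.44 to 7.32 CPM in the Control rats. The lymphocyte markers *Cd3e*, *Cd3g*, *Cd3d* and *Ms4a1* each averaged at most 0.206 CPM in either group. *Il2rg*, the shared chain of several cytokine receptors, was lower at 0.474 ± 0.175 against 1.37 ± 0.447 CPM (log2 fold change -1.53, SE 0.28, FDR = 0.0297, exact permutation p = 0.00216), without overlap of the groups. It passed the nominal threshold but not 5% FDR with the myelin, endothelial or microglial score as a covariate (FDR = 0.12, 0.0654 and 0.101).

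Marker genes of several other cell types differed between the groups in the same punches. Among all genes tested, 4.31% were lower and 4.0% higher at the nominal threshold. Of 10 myelin genes tested, 9 were lower and 0 higher, with a median log2 fold change of -0.58, and their summed level ran from 5537.6 to 13482.6 CPM in the CIE rats and from 8526.1 to 15979.0 CPM in the Control rats. The genes of smallest p were *Ugt8* (-0.96, FDR = 0.0727), *Cldn11* (-0.77, FDR = 0.153) and *Cnp* (-0.64, FDR = 0.188). Of 10 endothelial genes, 5 were lower and 0 higher, with a median of -0.27 and sums of 225.6 to 301.9 and 264.6 to 338.6 CPM, led by *Eng* (-0.41, FDR = 0.164), *Pecam1* (-0.31, FDR = 0.233) and *Tek* (-0.33, FDR = 0.39). All 4 erythroid genes tested were lower, with a median of -2.11 and sums of 29.6 to 94.4 and 127.0 to 219.9 CPM. Of these, the hemoglobin gene *Hbb* averaged 48.6 and 148.5 CPM (-1.61, FDR = 0.0229), the anion exchanger *Slc4a1* was at -2.62 (FDR = 0.0263) and *Alas2* at an FDR of 0.0652. In CIE rat 6, the highest of its group in *Cx3cr1*, *Csf1r*, *Tmem119* and *Itgam*, the myelin and endothelial sums were also the highest of the CIE group. *Cx3cr1* was at -0.23 with the myelin score as a covariate (FDR = 0.425) and at -0.27 with the endothelial score (FDR = 0.444), whereas *Csf1r* turned to 0.04 and 0.05. The part of erythroid and leukocyte RNA in these differences was not tested.

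The punches also differed in neighboring tissue. The striatal marker genes summed to 3106.4 CPM in CIE rat 2 and 3449.1 CPM in Control rat 10, against 215.5 to 1411.4 CPM in the other 10 rats. The 6 cortical marker genes had a median log2 fold change of 1.37, with sums of 12.8 to 426.1 CPM in the CIE rats and 15.5 to 159.9 CPM in the Control rats. With both scores as covariates the log2 fold change of *Cx3cr1* was -0.23 (FDR = 0.27). The cortical gene of smallest p was *Neurod2* (1.90, FDR = 0.575). Of 10 astrocyte genes 2 were lower, *Aqp4* (-0.28, FDR = 0.448) and *Ntsr2* (-0.17, FDR = 0.554), and 1 was higher, *Gjb6* (0.34, FDR = 0.59). Of 10 pan-neuronal genes 1 was lower, *Tubb3* (-0.20, FDR = 0.573), and *Slc32a1* was at -0.16 (FDR = 0.701) and *Nefm* at -0.19 (FDR = 0.721). The shares among all genes tested were 4.31% lower and 4.0% higher.

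**Figure D3:**
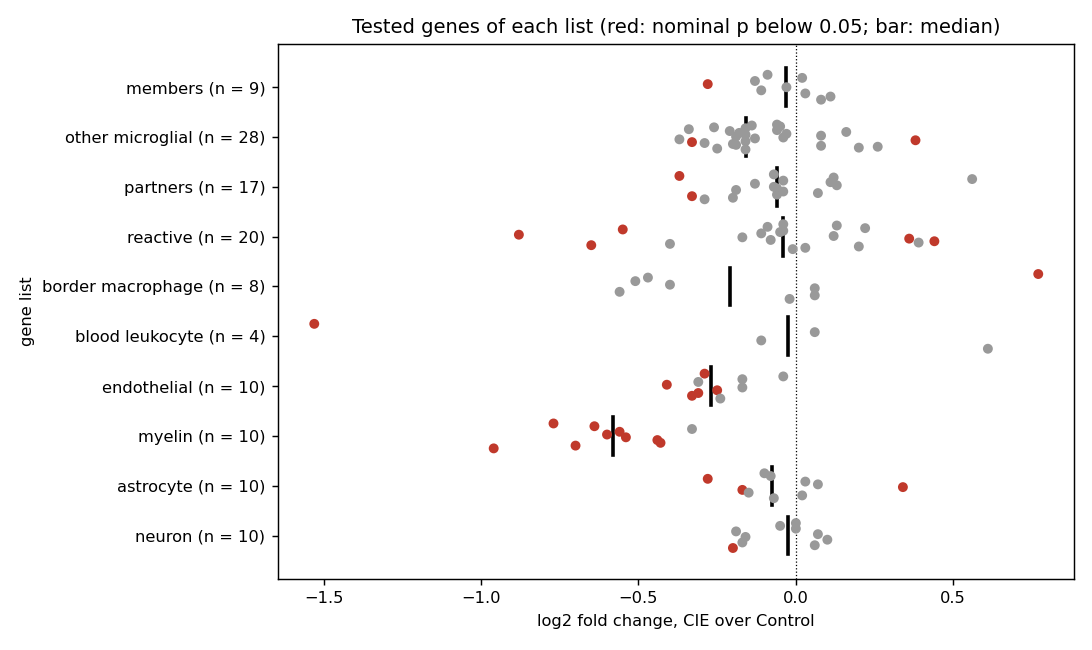
Log2 fold change of CIE over Control for the tested genes of 10 gene lists, leaving out the erythroid (median -2.11), cortical (1.37) and striatal (0.24) lists, with 1 point per gene, with red for a nominal p value below 0.05 and a black bar at the median of each list. The members center near 0 (median -0.03), the other microglial genes lie slightly to the left (-0.16), and of the lists drawn the myelin genes lie farthest to the left (-0.58).

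Whether the 9 genes varied together across rats was examined with the 36 pairs of members on the log2 CPM scale over 12 rats. Pearson's r ranged from -0.10 to 0.84 with a median of 0.18 and was positive for 31 pairs. Of the 36 pairs, 1 had an adjusted p value below 0.05, *Tyrobp* with *Cd68* (r = 0.84, permutation p = 0.00083, adjusted 0.0299; Spearman's rho = 0.83, permutation p = 0.00123, adjusted 0.0443). Without Control rat 12 and CIE rat 3, the rats farthest from the median of *Tyrobp*, r was 0.81 (permutation p = 0.00491, adjusted 0.177). The relation was present within each group, with r = 0.89 in the CIE rats and 0.80 in the Control rats, 6 rats each.

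The receptor *Trem2* and its adaptor *Tyrobp* gave r = 0.50 (permutation p = 0.0976, adjusted 0.391) and rho = 0.46 (permutation p = 0.134, adjusted 0.484). The pair *P2ry12* and *Tmem119*, both markers of resident microglia, gave r = 0.20 (permutation p = 0.547, adjusted 0.985) and rho = 0.27 (permutation p = 0.391, adjusted 0.783). *Aif1* and *Cd68* gave r = 0.45 (permutation p = 0.146, adjusted 0.404) and rho = 0.52 (permutation p = 0.0889, adjusted 0.40). Without the 2 rats farthest from the median of the first gene, r was 0.75 for *Trem2* with *Tyrobp*, 0.44 for *P2ry12* with *Tmem119* and 0.60 for *Aif1* with *Cd68*, none of them past the adjusted threshold. The lowest coefficient, -0.10, was that of *P2ry12* with *Aif1* and with *Cd68*. The median r with the other 8 members was lowest for *P2ry12* (0.02) and *Trem2* (0.03) and highest for *Csf1r* (0.50). *P2ry12* with *Cx3cr1* gave r = 0.63 (permutation p = 0.0303, adjusted 0.182) and rho = 0.59 (permutation p = 0.0479, adjusted 0.288). Without CIE rats 4 and 2 r was 0.30, so the coefficient depended in part on those rats. Within groups r was 0.55 in the CIE rats and 0.82 in the Control rats.

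With the group means removed, 2 pairs had an adjusted p value below 0.05 by Pearson's r. These were *Tyrobp* with *Cd68* (r = 0.85, permutation p = 0.00269) and *Tmem119* with *Csf1r* (r = 0.84, permutation p = 0.00251), both adjusted to 0.0484. By Spearman's rho neither passed, with rho = 0.85 (permutation p = 0.00245, adjusted 0.0882) and rho = 0.73 (permutation p = 0.00938, adjusted 0.138). Before removal of the group means, *Tmem119* and *Csf1r* had r = 0.72 (permutation p = 0.00597, adjusted 0.10). Without CIE rats 6 and 1 r was 0.40, so the coefficient depended in part on those rats. Within groups it was 0.95 in the CIE rats and 0.52 in the Control rats.

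**Figure D4:**
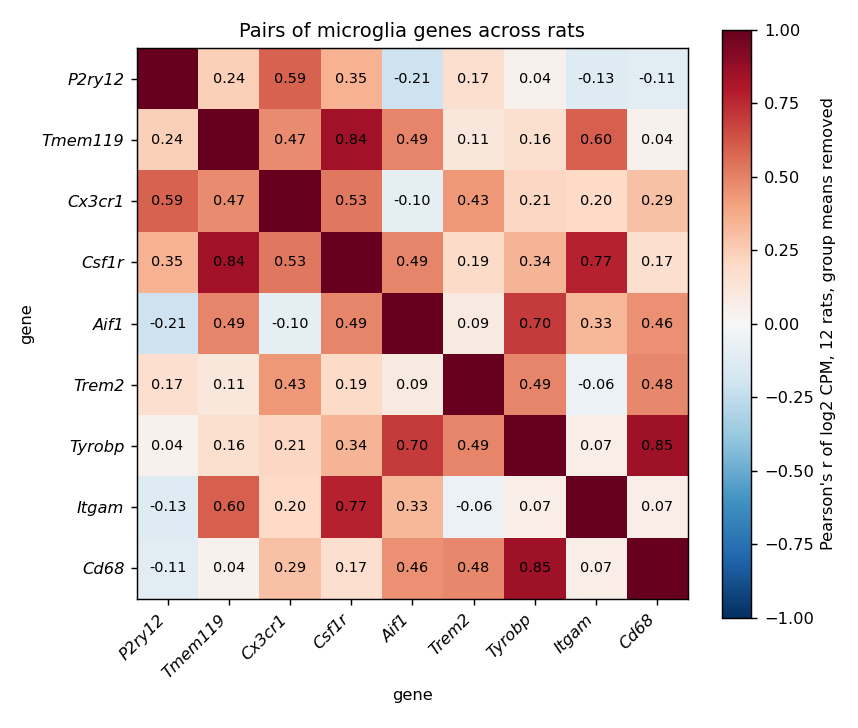
Pearson's r between each pair of the 9 genes over 12 rats, on log2 CPM with the group means removed, with the value printed in each cell and a color scale from blue for negative to red for positive values. *Tyrobp* with *Cd68* (0.85) and *Tmem119* with *Csf1r* (0.84) are the darkest cells off the diagonal, and the row of *P2ry12* is pale apart from *Cx3cr1* (0.59) and *Csf1r* (0.35).

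The genes whose pattern was most like that of the 9 members were found by the correlation of their log2 CPM with the mean z-score of the members over 12 rats, with group means removed, among 16882 genes with a mean of at least 1 CPM. The 10 highest were *Nid1* (r = 0.93), a basement membrane protein, *Jak3* (0.89), a kinase of cytokine receptors, *Snx22* (0.87), *P2ry6* (0.86), LOC100912503 (0.86), *Pla2g2c* (0.85), *Anxa3* (0.84), *Laptm5* (0.84), *Ctdsp1* (0.84) and RGD1564480 (0.83). Of these, *P2ry6* and *Laptm5* belong to the other microglial genes. An r above 0.5 was found for 12 of 26 other microglial genes (46.2%), 7 of 10 endothelial genes (70.0%), 5 of 10 myelin genes (50.0%), 0 of 10 neuronal genes and 878 of all 16882 genes (5.2%). These coefficients describe 12 shared libraries and were not tested.

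Across the settings examined, *Cx3cr1* kept a lower level in CIE. When each of the 12 rats was left out in turn, its log2 fold change lay between -0.33 and -0.25, with nominal p values of 0.00029 to 0.00511 and FDR values of 0.045 (without CIE rat 6) to 0.389 (without Control rat 8). DESeq2 gave -0.27 (FDR = 0.0653), and limma-voom with sample quality weights gave -0.37 (FDR = 0.0118). Leaving out the 3 libraries of lowest quality weight (CIE rats 3 and 6 and Control rat 10), a choice made after the data were seen, gave -0.40 (FDR = 0.0148). The FDR of *Cx3cr1* therefore fell on either side of 5% with the method and with CIE rat 6, whereas its nominal p value was below 0.05 in the 12 leave-one-out fits and in the 12 other settings. The number of members called at the nominal threshold is given here with the share of all genes called in the same fit. DESeq2 called 1 of the 9 (9.21% of all genes), the myelin score as a covariate 2 (10.8%, with *Itgam* added), limma-voom 3 (17.2%, with *Csf1r* and *P2ry12* added) and the fit without the 3 libraries 2 (19.2%, with *Csf1r* added). Without CIE rat 5 the count was 2 (8.6%, with *P2ry12* added), and without CIE rat 6 it was 2 (9.26%, with *Csf1r* added).

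**Figure D5:**
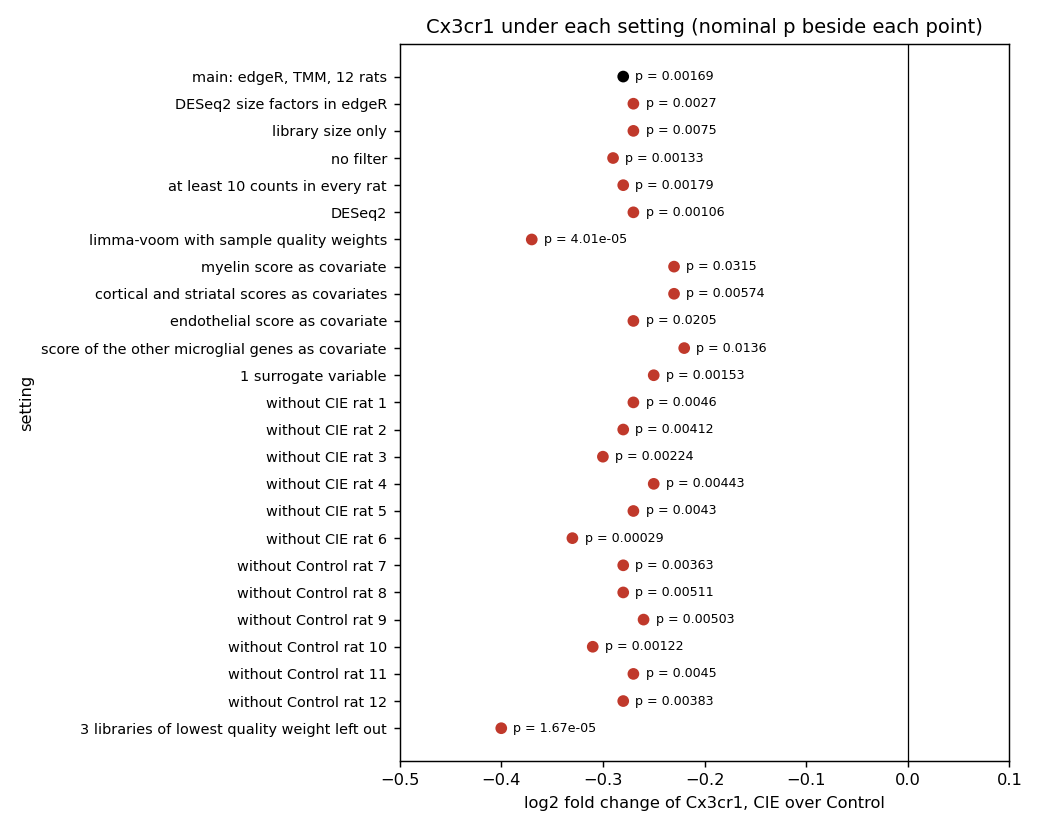
Log2 fold change of *Cx3cr1* (CIE over Control) in the main test, in black, and under each alternative setting, in red, with the nominal p value beside each point and a vertical line at 0. All points lie between -0.40 and -0.22.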

How the data were processed

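CeA punches of 6 CIE and 6 Control rats gave 1 poly-A RNA-Seq library each. Per the authors, BWA aligned the paired reads to Rnor_6.0 and HTSeq produced gene counts, and the deposited values are these raw counts, unfiltered. The annotation and the strand and overlap settings are not given in the sources used here. The submitters' processing notes also list DESeq2 1.26. Blank rows (37209) and leading spaces in names were removed, and 7757 of 37209 genes had 0 counts in every rat.

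The test was edgeR 4.0.16 in R 4.3.3 (TMM, filterByExpr, quasi-likelihood F test, two-sided, no covariates, Benjamini-Hochberg over 20944 genes). Alternatives used DESeq2 1.42.0, limma 3.58.1 and sva 3.50.0, and Python 3.11.15 (scipy 1.17.1, pandas 2.3.3) served for the rest. The scripts were tested on simulated counts. The SE of a log2 fold change was taken from its F statistic. Exact permutation tests enumerated the 924 splits of 12 rats into 6 and 6. Correlations used 100000 permutations, with adjustment over 36 pairs. The members and gene lists were chosen with earlier results of these data known. Genes named are the 9 members, the 3 tested genes of smallest p in each other list, 8 fixed partners (*Il34*, *Csf1*, *Cx3cl1*, *Apoe*, *Syk*, *Itgb2*, *Adam17*, *Spi1*) and the 10 genes most alike in pattern. Further list genes named for their role, such as *Adam10*, *C3*, *Nfkbia* and *Lpl*, were chosen after their values were seen. Each library is from a separate rat. All rats lived 3 to a cage, and which of them shared one is not given in the sources used here. Gene names and promoters were matched by symbol to RefSeq (GRCr8), which held all 9 members. Its GRCr8 coordinates served for promoter windows and for which genes overlap, and none were applied to the counts, which are on another build.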

Additional observations from a re-analysis of the deposited data

Results flagged for a closer look

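A gap test for single samples (Dixon's, at the 95% level) was run on the 9 members and 42 other named genes in both groups. It picked out 10 of 102 groups, where chance picks out about 1 in 20. One of the 10 concerns a member. *Csf1r* was at 128.3 CPM in CIE rat 6, against 91.0 to 102.5 CPM in the other CIE rats. This library was also the highest of its group in *Cx3cr1*, *Tmem119* and *Itgam* and in the myelin and endothelial sums.

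Among partners and reactive genes, single values stood far from the rest. *Apoe* was at 3225.4 CPM in CIE rat 3 (2343.3 to 2574.3 CPM in the others), and *Cybb* was at 1.65 CPM in Control rat 10 (0.682 to 0.993 CPM). Most of the remaining values concern markers of neighboring tissue in Control rat 10, with *Slc17a7* at 130.1 CPM (3.66 to 43.3 CPM in the other Control rats), *Neurod6* at 7.98 CPM (0.0665 to 2.53 CPM), *Drd2* at 251.4 CPM (17.9 to 56.1 CPM), *Rgs9* at 390.3 CPM (32.8 to 79.7 CPM) and *Adora2a* at 400.4 CPM (9.81 to 91.4 CPM). *Rgs9* was also at 398.8 CPM in CIE rat 2 (46.0 to 141.5 CPM in the other CIE rats). The erythroid gene *Alas2* was at 13.3 CPM in Control rat 9 (8.49 to 10.1 CPM). Without Control rat 10 the log2 fold change of *Cx3cr1* was -0.31, and without CIE rat 2 it was -0.28.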

How the results depend on the processing

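No paired analysis was possible because the CIE rats carry numbers 1 to 6 and the Control rats 7 to 12, so the groups share no replicate number. Single members other than *Cx3cr1* had intervals wide enough to hide moderate differences, most of all *Cd68* with 43 to 105 counts per rat. The 3 libraries left out together (CIE rats 3 and 6 and Control rat 10) were those of the lowest limma-voom quality weight, a choice made after seeing the data, and the weights were estimated with the groups in the model. The cause of the changes listed here was not tested.

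Of 108 leave-one-out fits of the 9 members, 96 kept direction and side of the nominal threshold, and so did 92 of 108 fits under 12 other settings. *Cx3cr1* kept both in all of these, between -0.40 and -0.22. The count of members called, 1, was 3 with limma-voom (with *Csf1r* at -0.18 and *P2ry12* at -0.22), 2 with the myelin score, 2 without the 3 libraries (with *Csf1r* at -0.21) and 1 to 2 with single rats left out. The count over the other lists, 34, was 52 with limma-voom, 14 with the myelin score, 19 with the microglial score, 63 without the 3 libraries, 18 at a nominal p value below 0.01, and 26 to 47 with single rats left out. The myelin and microglial scores are built from genes of these lists, so calls among those genes fall by construction. Among all genes, 2267 passed the nominal threshold with the myelin score and 1333 with the microglial score. The number of member pairs past the adjusted threshold by Pearson's r, 1, was 2 with group means removed and 0 without the 2 farthest rats. Over all genes, 1740 passed the nominal threshold and 76 passed 5% FDR with edgeR, against 3596 and 234 with limma-voom, 1929 and 273 with DESeq2, and 4078 and 287 without the 3 libraries, and with single rats left out the numbers were 1347 to 2811 and 34 to 154. At 5% FDR it was 27 with the myelin, 19 with the microglial and 7 with the endothelial score. With library size only, 60.3% of the genes past the nominal threshold were higher in CIE, against 48.1% with TMM, and without Control rat 10 the share was 61.1%.

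Signs turned as follows. With limma-voom *Tmem119* was at -0.03, *Cd68* at -0.12 and *Cx3cl1* at 0.01. With the myelin score *Csf1r* was at 0.04, *Itgam* at 0.40, *Cd68* at -0.06, *Cyth4* at 0.01, *Ltb* at 0.47, *Nefm* at 0.02 and *Itgb2* at 0.32. With the endothelial score *Csf1r* was at 0.05, *Aif1* at 0.13, *Itgam* at 0.27, *Ltb* at 0.18, *Nefm* at 0.05, *Cx3cl1* at 0.10 and *Itgb2* at 0.15. With the microglial score *Aif1* was at 0.02, *Itgam* at 0.20, *Ltb* at 0.05 and *Itgb2* at 0.14. With the cortical and striatal scores *Neurod6* was at -0.01, *Drd2* at -0.08 and *Rgs9* at -0.14, and with 1 surrogate variable *Rgs9* was at -0.00068. *Neurod6* is part of the cortical score and *Drd2* and *Rgs9* of the striatal score, so their values near 0 with these scores follow from the model. Without the 3 libraries *Tmem119* was at -0.05, *Tyrobp* at -0.04, *Cd68* at -0.16 and *Cx3cl1* at 0.17. With single rats left out the ranges were -0.05 to 0.08 for *Tmem119*, -0.04 to 0.14 for *Tyrobp*, -0.18 to 0.05 for *Itgam*, -0.15 to 0.12 for *Cd68*, -0.29 to 0.06 for *Ltb*, -0.35 to 1.30 for *Drd2*, -0.50 to 1.34 for *Rgs9*, -0.32 to 1.65 for *Adora2a*, -0.23 to 0.02 for *Cx3cl1* and -0.17 to 0.02 for *Itgb2*.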

Other observations

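The 3 tested genes of smallest p in the border macrophage list had log2 fold changes of both signs. Beside *Cd163*, the folate receptor gene *Folr2* was at 0.53 ± 0.205 CPM in CIE and 0.76 ± 0.188 CPM in Control rats (log2 fold change -0.51, SE 0.29, FDR = 0.695, exact permutation p = 0.0714), and the coagulation factor gene *F13a1* was at 1.32 ± 0.42 and 1.83 ± 0.568 CPM (-0.47, SE 0.26, FDR = 0.695, exact permutation p = 0.121). Only *Cd163* of these passed the nominal threshold, and it no longer did so when CIE rat 2, 4 or 6 or Control rat 7 or 11 was left out, with a highest nominal p value of 0.089. The threshold was also missed with scores of cortical and striatal markers in the model, where *Cd163* was at 0.49 (FDR = 0.696), with the myelin score (0.84, FDR = 0.506), with 1 surrogate variable (0.66, FDR = 0.542) and without the 3 libraries of lowest quality weight (0.83, FDR = 0.266). *Mrc1*, the mannose receptor of border macrophages, was at 4.54 and 4.35 CPM (log2 fold change 0.06, SE 0.17).

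*Tgfb1*, the cytokine that maintains microglial identity, ranged from 6.78 to 10.1 CPM in the CIE rats (median 8.28) and from 8.32 to 11.3 CPM in the Control rats (median 9.52), with a log2 fold change of -0.20 (SE 0.10, FDR = 0.639, exact permutation p = 0.0649). Its receptor *Tgfbr1* was at -0.16 (SE 0.09, FDR = 0.709), and *Nrros*, which tethers the latent form on microglia, was at -0.04 (SE 0.11, FDR = 0.953). Over the 17 partners tested, 2 were lower (*Adam17* and *Syk*) and 0 higher at the nominal threshold, against 4.31% lower and 4.0% higher among all genes. Their median log2 fold change was -0.06. In the blood list, *Plac8* was at 0.61 (SE 0.48, FDR = 0.801, exact permutation p = 0.281) and *Ltb* at -0.11 (SE 0.27, FDR = 0.945, exact permutation p = 0.686).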
